A study of Mus musculus with 45 samples.

Results

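Organoids grown from the small intestine of mouse embryos at E17.5 were kept with Rspondin 2 (Rspo2) at 100 or at 5 ng/ml, and the 2 doses were compared over all genes. The comparison rests on 6 of the 45 libraries of the series, 1 library at each dose from each of 3 cultures (WT10, WT5 and WT30). A culture is the material of 1 embryo of the Lgr5-DTReGFP line that carried 2 intact Lgr5 alleles (WT), so the doses were compared within culture. Every culture was at passage 4, in Matrigel and in medium with EGF and noggin, with CHO-derived mouse Rspondin as the only variable. The same cultures were also given Rspondin 1 (Rspo1) and Rspondin 3 (Rspo3) at both doses, and 2 Lgr5 knockout cultures (KO7 and KO2), in which the DTReGFP cassette disrupts both Lgr5 alleles, were given all 3 ligands. These other 24 organoid libraries serve here as the estimate of spread and as the test of whether the response differed.

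Rspondins are secreted proteins that bind the receptors Lgr4, Lgr5 and Lgr6 and draw in Rnf43 and Znrf3, membrane E3 ubiquitin ligases that otherwise remove Frizzled receptors from the cell surface. With the ligases out of the way, Wnt ligands signal more strongly through Frizzled and Lrp5 or Lrp6 to beta-catenin, which acts with TCF factors on genes such as Axin2. In intestinal crypts Wnt signalling maintains Lgr5-positive stem cells and the maturation and position of Paneth cells, and several of its targets, Rnf43 and Znrf3 among them, are themselves brakes on the pathway.

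The 6 libraries held 18.1 to 27.6 M reads on genes, so that 1 read was worth 0.0363 to 0.0552 CPM (counts scaled to the reads on genes in the library). Mitochondrial genes took 1.08 to 2.06% of the reads and ribosomal protein genes 2.55 to 3.4%, with overlapping ranges between the doses. The epithelial markers Epcam (579 to 652 CPM at 100 ng/ml and 651 to 720 at 5 ng/ml) and Cdh1 were high in every library. Of the markers of other cells, 4 of 20 mesenchymal, 3 of 9 endothelial, 4 of 16 immune and 4 of 10 neuronal or glial genes reached the level needed for a test. The summed mesenchymal markers stood at 10.8 to 19.8 CPM at 100 ng/ml and 15.2 to 20.8 at 5 ng/ml, the endothelial ones at 7 to 9.7 and 9.65 to 16.4, the neuronal and glial ones at 16.4 to 26.8 and 13.8 to 24.3. The immune list summed to 59.3 to 93.4 and 45.1 to 64.1 CPM, most of it Kit, which Paneth cells express too. In all 6 libraries 2 mesenchymal, 3 endothelial, 2 immune and 1 neuronal or glial marker were at 0, and the part of these cells in the results was not tested. No pair of libraries held identical values.

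Between 100 and 5 ng/ml of Rspo2, 6196 of 18256 genes were higher at the high dose (33.9%) and 2524 were lower (13.8%) at an adjusted p under 0.05 (limma on log2(CPM + 1) with culture as a block and all 18 WT libraries sharing 1 estimate of spread). Changes of at least 2-fold were fewer, with 929 genes higher (5.09%) and 286 lower (1.57%). All log2 differences below are on the log2(CPM + 1) scale, which understates the change of genes of a few CPM. Of the called genes, 98.1% moved in the same direction in all 3 cultures, against 67% of all genes tested, and in 85% the values of the 2 doses did not overlap, against 48%. The balance of the calls depended on the scaling. The median log2 difference of all genes was 0.17 on the CPM as deposited and 71.1% of the calls were higher, whereas with median-of-ratios scaling the median was 0.03 and 52.5% were higher, and with quantile normalization it was -0.01 and 48.3% were higher. Small changes are therefore read against that median, and in these bulk libraries fewer cells of a type and less RNA per cell cannot be told apart.

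**Figure D1:**
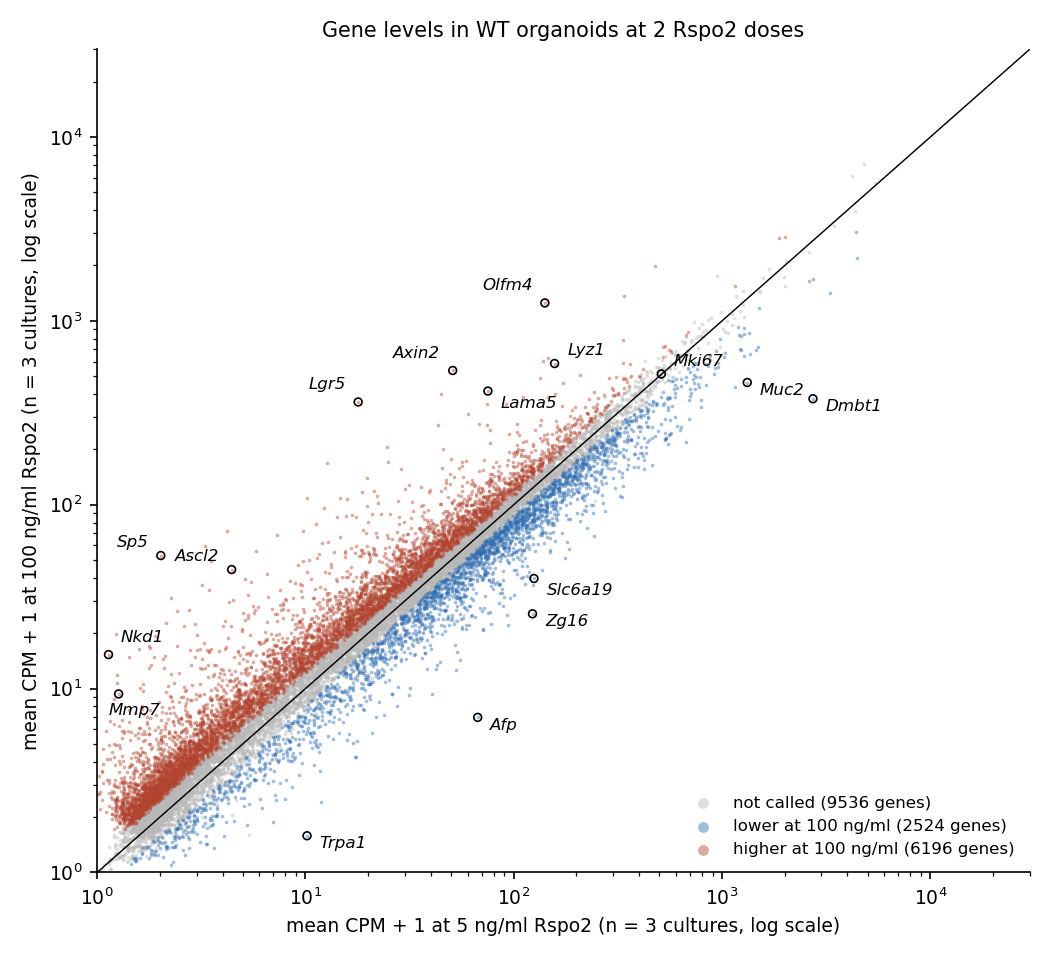
Mean level of each of the 18256 tested genes over the 3 WT cultures with Rspo2 at 5 ng/ml (x axis) and at 100 ng/ml (y axis), both as mean CPM + 1 on a log scale, with called genes coloured by direction. Lgr5, Axin2 and Sp5 lie far above the diagonal and Dmbt1 and Afp far below it, while most called genes lie close to it.

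The gene with the largest rise among the genes named by size was Sp5, a zinc finger transcription factor and direct Wnt target (chromosome 2 of GRCm38). Sp5 stood at 61.6, 36.6 and 57.4 CPM in WT10, WT5 and WT30 at 100 ng/ml, and at 0.9, 1.6 and 0.55 CPM at 5 ng/ml. The groups were far apart in each culture, and the log2 difference was 4.71 ± 0.34 (SE, n = 3 cultures, limma adjusted p = 1.31e-07). Lgr5 itself (ENSMUSG00000020140, chromosome 10, 115450311 to 115587780, minus strand), the Rspondin receptor that marks intestinal stem cells, came next. It was at 379, 247 and 457.5 CPM at the high dose and at 15.9, 28.7 and 6.1 CPM at the low dose (log2 difference 4.52 ± 0.33, adjusted p = 1.56e-07). The lowest of the high-dose libraries was thus still several times above the highest of the low-dose ones, and WT30 had both the highest and the lowest level of the 6.

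The sequences of 4 promoters of genes described here show where the core TCF motif, CTTTGAT on either strand (ATCAAAG on the other), falls in the 250 bases before the start. They are RefSeq promoters on GRCm38.p6, 5′ to 3′ on the strand of the gene, with matches in capitals. Sp5 (chr2:70474673-70474922, plus strand) and Tnfrsf19 (chr14:61037988-61038237, minus strand) are Wnt targets with a match, Axin2 (chr11:108920099-108920348, plus strand) is one without a match in this window, and Defa35 (chr8:21064788-21065037, plus strand) is a Paneth cell defensin with 2.
Sp5: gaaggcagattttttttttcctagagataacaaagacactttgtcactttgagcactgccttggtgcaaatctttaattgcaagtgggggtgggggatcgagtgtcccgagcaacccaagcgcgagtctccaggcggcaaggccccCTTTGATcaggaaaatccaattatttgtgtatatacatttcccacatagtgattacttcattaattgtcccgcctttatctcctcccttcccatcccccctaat
Tnfrsf19: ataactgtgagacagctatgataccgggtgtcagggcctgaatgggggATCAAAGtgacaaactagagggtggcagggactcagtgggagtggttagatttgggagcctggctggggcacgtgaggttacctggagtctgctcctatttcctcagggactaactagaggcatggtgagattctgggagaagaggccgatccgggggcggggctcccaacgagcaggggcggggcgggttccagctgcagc
Axin2: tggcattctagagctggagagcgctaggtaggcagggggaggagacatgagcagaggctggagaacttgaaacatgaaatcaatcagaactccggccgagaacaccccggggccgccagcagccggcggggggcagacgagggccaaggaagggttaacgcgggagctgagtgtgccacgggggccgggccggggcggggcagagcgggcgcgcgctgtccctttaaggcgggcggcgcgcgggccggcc
Defa35: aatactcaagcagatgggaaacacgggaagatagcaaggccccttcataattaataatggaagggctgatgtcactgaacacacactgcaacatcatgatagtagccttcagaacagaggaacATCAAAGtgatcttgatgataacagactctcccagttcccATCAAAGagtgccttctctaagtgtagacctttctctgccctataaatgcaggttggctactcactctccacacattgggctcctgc
The match in Sp5 began 104 bases before the start and that in Tnfrsf19 202 bases before it, and those in Defa35 lay at 127 and 87 bases. Of 27025 genes with a promoter in the table, 3.72% held the motif, and of the 10988 tested genes with one, 2.82%. The share was 2.64% among genes called higher, 2.45% among genes called lower and 3.05% among the rest, and it was 4.15% of the genes that rose at least 2-fold. Of the 18 tested genes on the Wnt target list with a promoter in the table, 3 held it (16.7%), namely Sp5, Tnfrsf19 and Mmp7. Tnfrsf19 and Mmp7 each have 2 windows in the table, of which 1 holds the motif, and for Tnfrsf19 that window is the one printed. A match is a run of letters and not a bound site, and most of the genes that rose held none in this window.

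Among the Rspondin receptors, the E3 ligases and the Wnt co-receptors, 13 of 21 tested genes rose (61.9%) and 3 fell (14.3%). The shares of all genes were 33.9% and 13.8%. The median log2 difference was 0.52 against 0.17 over all genes. Lgr4, the broadly expressed receptor, was at 332, 279 and 310 CPM at the high dose and 277, 279 and 256 CPM at the low dose. Its difference of 0.18 ± 0.09 did not pass the test (adjusted p = 0.105), although it did with quantile normalization (0.28, adjusted p = 0.0109) and with library weights (0.20, adjusted p = 0.0189). Lgr6 was at 0 or 0.05 CPM, the level of about 1 read, in all 6 libraries. The brakes moved with the dose. Rnf43 was at 327, 266 and 338 CPM against 58.9, 82.2 and 36.6 CPM (log2 difference 2.44 ± 0.18, adjusted p = 1.51e-07), and Znrf3 at 114, 97.15 and 139 CPM against 42.1, 49.25 and 39.95 CPM (1.39 ± 0.13, adjusted p = 8.12e-07). No library of one dose reached the range of the other for either ligase.

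The Frizzled receptors, which bind Wnt, divided. Of 9 tested, 6 rose and 2, Fzd4 and Fzd5, fell. Both fell under either scaling and without any 1 culture, while the number that rose was 5 with median-of-ratios scaling and 4 with quantile normalization, without WT10 or without WT30. Fzd7, the receptor linked to crypt stem cells, was at 99.1, 86.4 and 140 CPM against 49.45, 48.9 and 43.85 CPM (log2 difference 1.15). Fzd5, the receptor linked to Paneth cell maturation, went from 592, 731 and 488 CPM at the low dose down to 245, 342 and 210 CPM, a fall of 1.19 on the log2 scale (adjusted p = 7.63e-06). Of the co-receptors, Lrp5 rose by 0.52 and Lrp6 fell by 0.35 on the log2 scale. Without WT10 8 of the 21 genes rose, and without WT30 8 rose and 2 fell.

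Of the Wnt ligand genes and their processing factors, 7 of 25 were expressed enough for a test, and 6 rose and none fell. The number that rose was 4 with median-of-ratios scaling or without WT10, and 3 with quantile normalization or without WT30. Wnt3, the ligand that Paneth cells make, was at 15.9 ± 3.68 CPM (SD, n = 3) against 3.17 ± 0.375 CPM, without overlap (log2 difference 2.00 ± 0.15, adjusted p = 1.82e-07). Wls, which carries Wnt proteins to the cell surface, rose by 0.86 and Wnt2 by 1.17, the latter from 0.2 to 0.55 CPM to 1.5 to 2.8 CPM. Of 18 tested genes of beta-catenin signalling inside the cell, 5 rose (27.8%) and 2 fell (11.1%), near the 33.9% and 13.8% of all genes. Their list is labelled nuclear beta-catenin machinery but also holds Apc, Axin1, Gsk3b and the Dvl genes. The median of the 18 was 0.10, and no change reached 2-fold. The largest was Bcl9l, a beta-catenin co-activator, at 0.86. With median-of-ratios scaling only 1 of the 18 rose.

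Of the Wnt targets and feedback antagonists, 25 of 27 tested genes rose, 23 of them at least 2-fold, and none fell. Their median log2 difference was 2.02, and 24 or 25 rose under both scalings and without any 1 culture. Axin2 (chromosome 11), the scaffold of the complex that destroys beta-catenin, went from 44.2, 91 and 14.55 CPM to 530, 462 and 615 CPM (log2 difference 3.73 ± 0.35, adjusted p = 1.09e-06). Nkd1, which dampens Dishevelled, was at 14.6, 11 and 17.3 CPM at the high dose and at 0, 0.15 and 0.25 CPM, a few reads at most, at the low dose. Tnfrsf19 (Troy), a receptor of crypt base cells, rose by 4.04 ± 0.23 on the log2 scale, from 2.5 to 4.35 CPM to 40.8 to 87.15 CPM. Among targets that drive growth, Ccnd1 (cyclin D1) rose by 1.52 and Myc by 1.04 ± 0.22. Myc, a master regulator of growth, was at 155, 149 and 178 CPM against 92.45, 115 and 43.3 CPM. The 2 tested members that did not pass were Dpep1 (-0.17, adjusted p = 0.666) and Jag1 (-0.09, adjusted p = 0.632). Notum, a secreted enzyme that inactivates Wnt, was too low for the test, at 1.2, 0.6 and 1.45 CPM against 0.45, 0.25 and 0.3 CPM.

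Of the intestinal stem cell markers, 27 of 30 tested genes rose, 25 of them at least 2-fold, with a median log2 difference of 2.12 and none lower. The list shares 12 genes with the Wnt targets, 40% of its own members and 44.4% of theirs, so the 2 counts are not separate observations. Olfm4, a secreted glycoprotein of crypt base stem cells, was at 1303, 996 and 1443 CPM against 155, 227 and 36.2 CPM (log2 difference 3.49 ± 0.39, adjusted p = 4.89e-06). Ascl2, the transcription factor of stem cell identity, was at 60.9, 26.4 and 42.9 CPM against 3.85, 4.45 and 1.95 CPM (3.30 ± 0.28). Smoc2, a matricellular protein, rose from 120, 189 and 87.3 CPM to 454, 401 and 600 CPM (1.92 ± 0.21), and Igfbp4, an insulin-like growth factor binding protein, rose by 3.45 from at most 1.75 CPM. In all of these the values of the doses did not overlap. Markers often used for reserve stem cells divided. Hopx (1.53) and Lrig1 (1.41) rose, whereas Bmi1 stood at 50.65, 43.75 and 68.85 CPM against 57.2, 47.5 and 59.55 CPM (-0.03, adjusted p = 0.876) and Tert at -0.15 (adjusted p = 0.359). Prom1, another marker on the list, rose by 0.76.

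**Figure D2:**
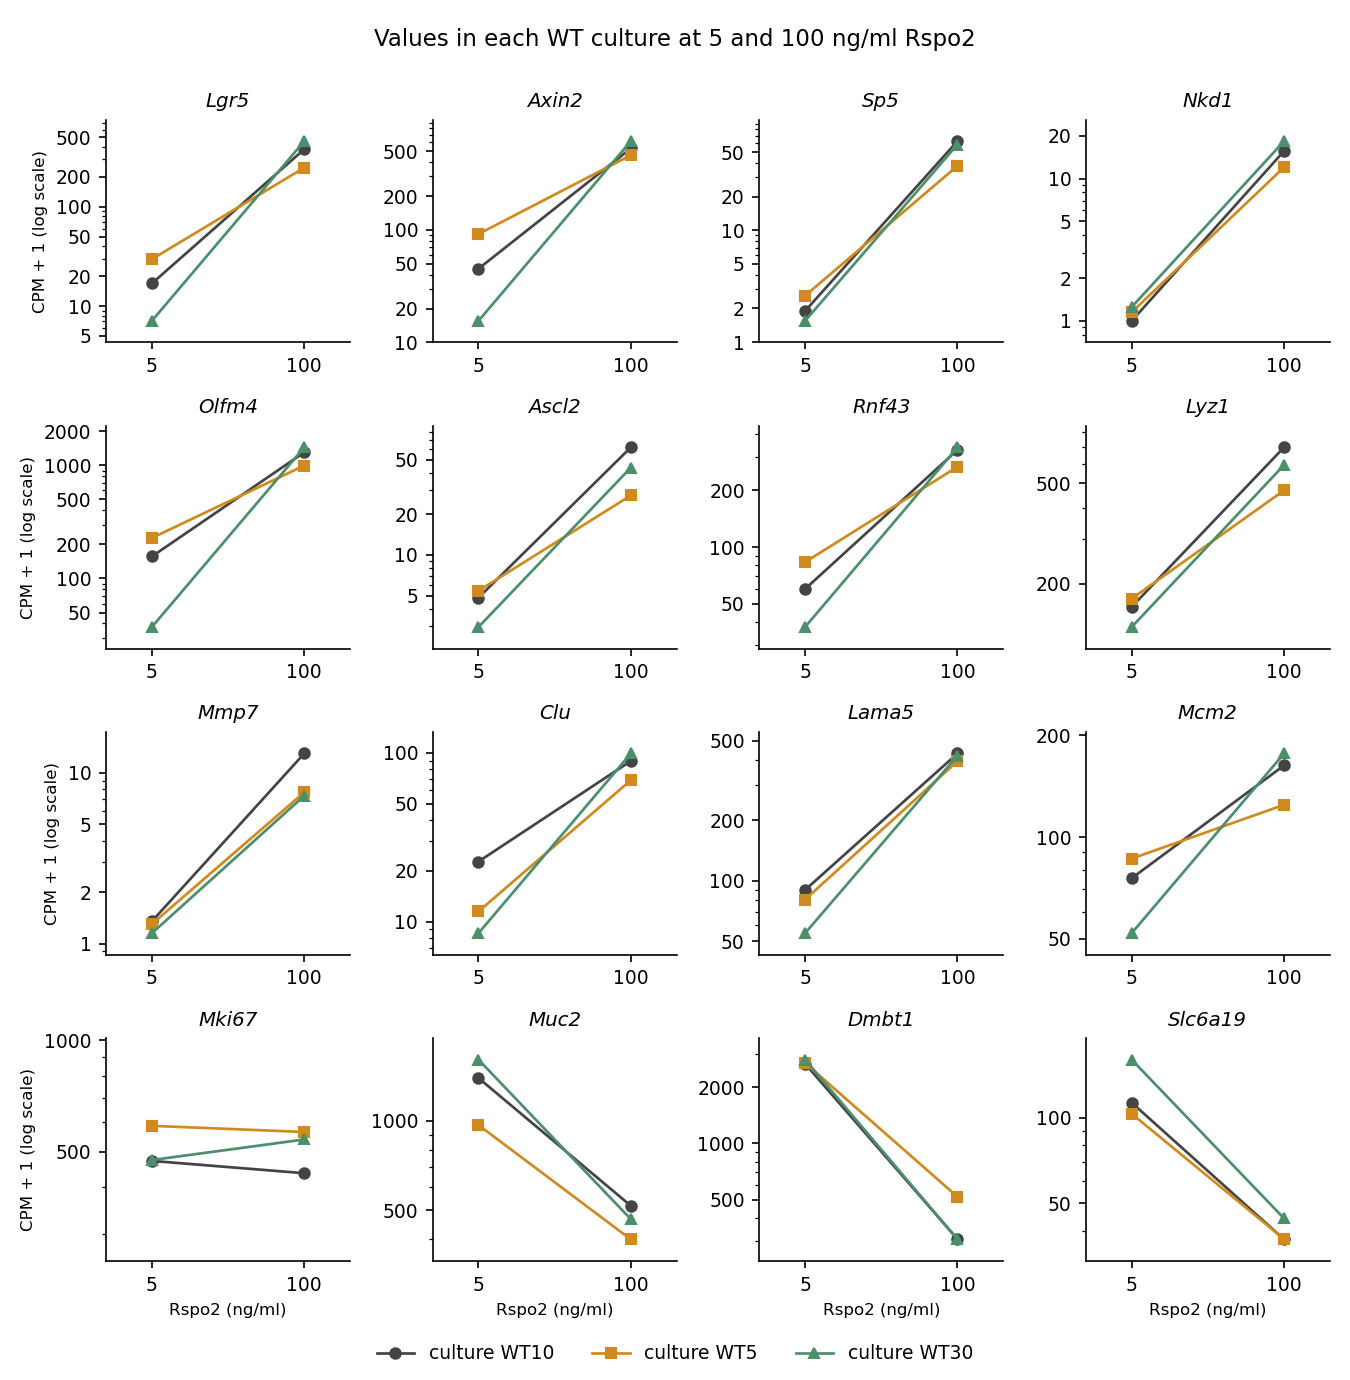
Level of 16 genes as CPM + 1 (log axis, its own range in each panel) with Rspo2 at 5 and at 100 ng/ml, each line joining the 2 libraries of 1 WT culture. Stem cell, Wnt and Paneth genes such as Lgr5, Axin2 and Lyz1 climb in all 3 cultures, Muc2 and Dmbt1 descend in all 3, and the line of WT5 is often the flattest.

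Paneth cell genes rose as well. Of 27 tested, 22 rose, 21 of them at least 2-fold, and 3 fell, with a median log2 difference of 1.86. The 22 include 12 alpha-defensins, and Mmp7, Pla2g2a and Sox9, which are on the Wnt target list too. They are thus not all separate observations. The number that rose was 22 with either scaling and without any 1 culture. Lyz1, the Paneth cell lysozyme (chromosome 10), was at 695, 468 and 591 CPM against 161, 173 and 134 CPM (log2 difference 1.89 ± 0.23, adjusted p = 1.23e-05). Mmp7, the protease that matures defensins, was at 12, 6.7 and 6.35 CPM against 0.35, 0.3 and 0.15 CPM (2.84 ± 0.18), and Habp2, a serine protease, rose by 2.73 ± 0.17. All 12 tested alpha-defensin genes rose, by 1.14 to 2.75, each without overlap between the doses, and all 12 were called under either scaling. Defensin genes are near-identical copies among which read counting can divide or drop reads, so their individual values are uncertain. Defa35 was at 43.05, 24.35 and 20.75 CPM against 3.7, 5 and 1.8 CPM, and Defa24 at 336, 188 and 300 CPM against 111, 90.15 and 109 CPM. The exceptions on the list were the pentraxins Mptx1 (a fall of 1.05 on the log2 scale, from 175 to 237 CPM down to 78.4 to 120.5 CPM) and Mptx2 (-0.82), and Xbp1, a regulator of the secretory pathway (-0.53).

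Of the Notch pathway and the regulators of secretory fate, 14 of 25 tested genes rose (56%) and 2 fell (8%). The shares of all genes were 33.9% and 13.8%. The list median was 0.49, and 9 rose without WT30. All 4 Notch receptors rose, by 0.83 to 1.50 on the log2 scale and without overlap, and were called under either scaling. Notch1, the main receptor of crypt progenitors, was at 284, 280 and 291 CPM against 137, 186 and 153.5 CPM. Lfng, a sugar transferase that tunes Notch for its ligands, rose by 2.06 ± 0.20 and Dll3 by 1.62, while the ligands Dll1 (-0.04), Dll4 (0.30), Jag1 and Jag2 (0.15) did not pass the test. Of the Notch targets, Hes1 was at 102, 88.75 and 115 CPM against 85.1, 96.5 and 91.8 CPM (0.15, adjusted p = 0.293; -0.01 with median-of-ratios scaling), and Nrarp, another Notch target, fell by 0.75 on the log2 scale. Atoh1, the switch to the secretory lineage, stood at 23.35, 13.1 and 22.4 CPM against 21.55, 14.55 and 23.9 CPM, a difference of -0.04 ± 0.12 (adjusted p = 0.806).

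Markers of the other secretory cells did not move with those of Paneth cells. Of 22 tested goblet cell genes 10 fell (45.5%) and 2 rose (9.09%), against 13.8% and 33.9% of all genes (median -0.45). Muc2, the gel-forming mucin (chromosome 7), went from 1393, 967.5 and 1606 CPM at the low dose to 517.5, 399 and 466 CPM at the high dose, a fall of 1.49 on the log2 scale (SE 0.16, adjusted p = 3.07e-06). Zg16, a mucus lectin, fell by 2.28 and Clca1, a mucus processing protease, by 1.65. Yet Tff3 (-0.25), Spink4 (0.06) and Spdef (0.02), genes of the same cells, did not pass the test, and Foxa3, a transcription factor of the secretory lineage, rose by 1.17. Of 30 enteroendocrine genes 14 fell (46.7%) and 5 rose (16.7%), with a median of -0.35. Hormones such as Sst and Cck, granule genes such as Chgb and Scg2, and the transcription factors Pax6 and Isl1 were among those that fell. Sst (somatostatin) was at 2.1, 1.95 and 5.75 CPM against 12.65, 8.5 and 27.9 CPM, and Cck (cholecystokinin) fell by 1.39 on the log2 scale. The rises included Neurog3 (0.96 ± 0.21) and Pax4 (0.77), transcription factors of early endocrine progenitors. Neurog3 was at 12.2, 7.35 and 24.2 CPM against 6.55, 5.45 and 6.75 CPM. Chga, the general endocrine marker, fell by 0.70 with overlapping values, and its call was lost without the culture block (adjusted p = 0.336). Without WT10 or without WT30, 8 enteroendocrine genes fell. Of 18 tuft cell genes 7 rose (38.9%) and 1 fell (5.56%), against 33.9% and 13.8% of all genes. Their median was 0.14, against 0.17 over all genes, and with quantile normalization 2 rose and 2 fell. Pou2f3, their master regulator, rose by 1.23 (2.2, 2.3 and 7.9 CPM against 0.7, 0.7 and 1.5 CPM), while Dclk1 stood at -0.33 (adjusted p = 0.324).

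Enterocyte genes went the other way from stem cell genes. Of 49 tested genes of digestion and absorption 35 fell, 16 of them at least 2-fold, and 3 rose, with a median log2 difference of -0.80. Slc6a19, the neutral amino acid transporter, was at 36.4, 36.5 and 43.3 CPM at the high dose and 112, 102 and 159 CPM at the low dose (-1.64 ± 0.12, adjusted p = 1.82e-07). Slc26a3, a chloride and bicarbonate exchanger, fell by 1.45, Mme, a brush border peptidase, by 1.37 and Fabp2, the intestinal fatty acid binding protein, by 1.15. Alpi, the alkaline phosphatase of the brush border, was at 619, 1022 and 369 CPM against 936, 969 and 1183 CPM. The doses overlapped, and its fall of 0.73 was not called without WT10 (limma adjusted p = 0.105) or without WT30 (-0.26, adjusted p = 0.406). Nor was it called with quantile normalization (-0.56, adjusted p = 0.0794) or in the 6 Rspo2 libraries alone (adjusted p = 0.0698). Fabp1 fell by 0.85 and was not called without WT30 (adjusted p = 0.0707). Lct, the lactase, ranged from 53.5 to 531 CPM at the low dose and from 82.65 to 126 at the high dose (-0.65, adjusted p = 0.342). The number of genes that fell in this list was 24 without WT10 and 18 without WT30. Of 15 general epithelial genes 6 fell and 1 rose, while 10 fell with median-of-ratios scaling, 4 with quantile normalization or without WT5, and 2 without WT30. Among them Krt20, a keratin of differentiated cells, fell by 0.88 while Krt18 rose by 0.67. Both of these calls were lost without WT30 (adjusted p = 0.109 and 0.0553).

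**Figure D3:**
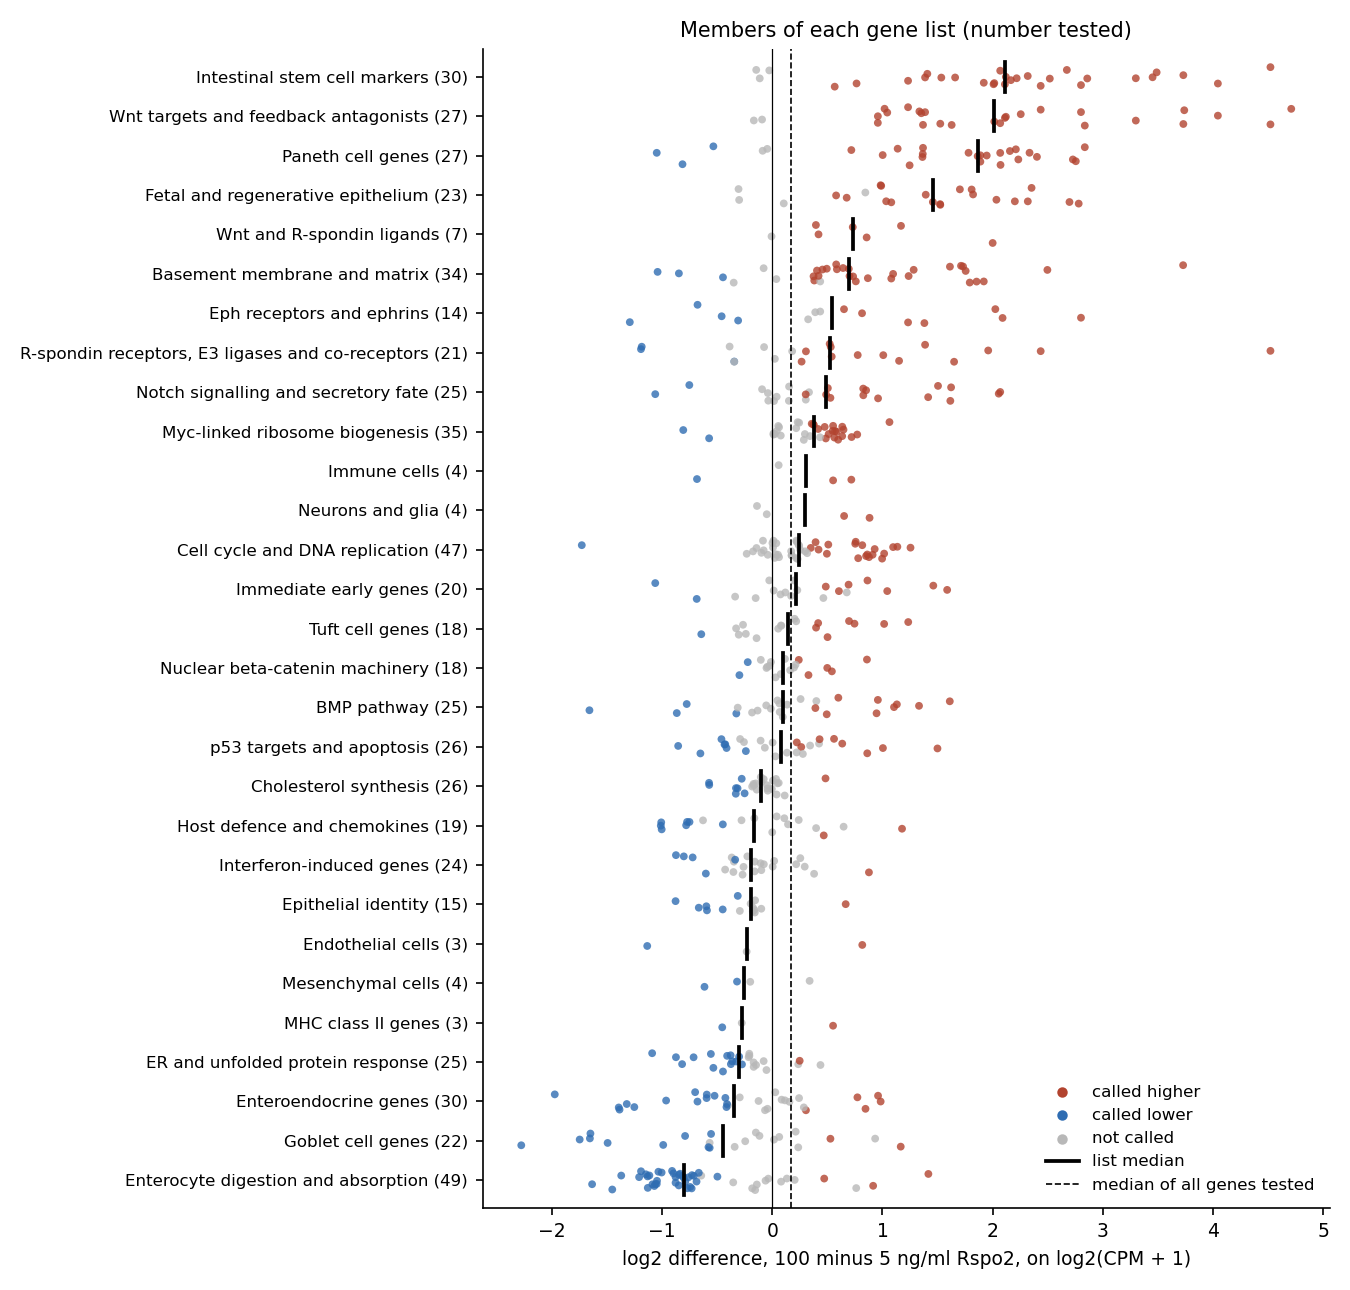
Log2 difference (100 minus 5 ng/ml of Rspo2 in WT cultures, log2(CPM + 1) scale) of every tested member of the gene lists, 1 point per gene, coloured by call, with the median of each list. Stem cell, Wnt target, Paneth and fetal lists have medians between 1.46 and 2.12, the enterocyte list has -0.80, and the cell cycle list stays near the median of all genes.

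The cell cycle and DNA replication list had a median of 0.24, close to the 0.17 of all genes. Of its 47 genes 19 were higher (40.4%) and 1 lower (2.13%), against 33.9% and 13.8% of all genes. Mki67, the common proliferation marker, was at 436, 564 and 538 CPM against 471, 586 and 473 CPM, a difference of 0.01 ± 0.15 (adjusted p = 0.976), and its sign was negative with median-of-ratios scaling (-0.16). Mitotic genes such as Ccnb1 (-0.17), Plk1 (0.06) and Aurka (-0.23) did not pass the test either. Among the genes that rose were several of S phase entry. All 6 members of the replicative helicase, Mcm2 to Mcm7, rose by 0.82 to 1.14 without overlap, with Mcm2 at 162, 123.5 and 176 CPM against 74.5, 85.3 and 50.9 CPM. All 6 were called under either scaling and 4 of the 6 without WT30. E2f1, the activator of S phase genes, rose by 1.25 and Cdc6, a licensing factor, by 1.10. The 1 gene that fell was E2f2 (53, 75.5 and 40.2 CPM against 172, 198 and 179 CPM, -1.73 ± 0.15, adjusted p = 4.79e-07). These were singled out after their values were seen. Of 35 genes of ribosome biogenesis that are linked to Myc, 19 rose (54.3%) and 2 fell (5.71%), with a median of 0.38. The rises were small, the largest being Rrp1b at 1.06, and they leaned on WT30, since 3 rose without it. For the cell cycle list 10 genes rose without WT30.

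Of 23 tested genes of fetal and regenerating epithelium, 19 rose and none fell, with a median of 1.46. Cyr61 and Ctgf, targets of the Hippo effector Yap, rose by 2.78 and 2.03, and Clu (clusterin), a marker of revival stem cells, was at 88.4, 67.8 and 98.05 CPM against 21.7, 10.5 and 7.55 CPM (2.70 ± 0.26, adjusted p = 1.5e-06). Ly6a (Sca1) was at 5.85, 6.5 and 4.8 CPM against 0.45, 0.1 and 0.4 CPM. By contrast Areg and Ereg, ligands of the EGF receptor, did not pass the test (-0.30 and -0.31). Without WT30, 16 of the 23 rose.

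Genes of the basement membrane and matrix rose in 27 of 34 tested and fell in 3 (median 0.70). Thbs1 (thrombospondin 1), an adhesive glycoprotein, was at 187, 97.15 and 220 CPM against 16.75, 11.65 and 6.8 CPM (3.73 ± 0.29, adjusted p = 1.94e-07). Lama5, the main laminin alpha chain of the gut, was at 430, 393 and 419 CPM against 88.95, 79.6 and 53.75 CPM (2.497 ± 0.16, adjusted p = 6.32e-08), and all 7 laminin chains tested rose, under either scaling too. The perlecan gene Hspg2 rose by 1.85. All 4 type IV collagen chains were called higher on the CPM as deposited but 2 of the 4 with either scaling. Col4a1 was at 8.25, 8 and 2.85 CPM against 2.55, 0.45 and 0.7 CPM. The falls were Fras1 (-1.04), Nid1 (-0.85) and P4ha1 (-0.45). The count that rose was 19 without WT10, 20 without WT30 and 18 with quantile normalization.

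Eph receptors and ephrins hold crypt and villus cells in separate compartments. Of 14 tested, 7 rose (50%) and 4 fell (28.6%), against 33.9% and 13.8% of all genes. Ephb3, the receptor of crypt base and Paneth cells, was at 174, 127 and 208 CPM against 23, 32.8 and 16.1 CPM (2.80 ± 0.21, adjusted p = 1.67e-07), and Ephb2, the receptor of stem and progenitor cells, rose by 1.23. Their ligands of the villus side, Efnb1 (76.1, 92.4 and 77.85 CPM against 133, 133 and 128 CPM, -0.68) and Efnb2 (-1.29 ± 0.15), fell. BMP signalling opposes stem cell renewal and was held down by noggin in all cultures. Of 25 BMP genes 9 rose (36%) and 4 fell (16%), near the 33.9% and 13.8% of all genes (median 0.10). Bmp3 fell by 1.66, from 138, 141 and 128 CPM to 33.3, 55.85 and 40.55 CPM, and Bmp7 rose by 1.33, whereas the BMP target genes Id1 (-0.06), Id2 (-0.31) and Id3 (0.40) did not pass the test.

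Of 25 genes of the endoplasmic reticulum and the unfolded protein response 14 fell and 1 rose, by small amounts (median -0.30), and 22 fell and none rose with median-of-ratios scaling. Trib3 (-1.09) and Ddit3 (-0.82), targets of the Atf4 branch, fell, and so did Atf4 itself, by 0.45 on the log2 scale. Of 26 cholesterol synthesis genes 7 were lower (26.9%) and 1 higher (3.85%), against 13.8% and 33.9% of all genes. Hmgcs1 and Insig1 both fell by 0.57. With median-of-ratios scaling 14 of the list were lower and none higher, and 4 were lower without WT5 and 2 without WT30. Of 24 interferon-induced genes 5 were lower (20.8%) and 1 higher (4.17%). The number lower was 9 with median-of-ratios scaling, 15 with quantile normalization and 2 without WT10 or without WT30. MHC class II genes had 1 of 3 in each direction, but 2 lower with either scaling and none lower without WT10 or without WT5. The called changes of the cholesterol, interferon and MHC class II lists were all below 2-fold on the CPM as deposited. In host defence, 7 of 19 fell (36.8%) and 2 rose (10.5%). Reg1 and Cx3cl1 both fell by 1.01, and Cxcl16, a chemokine, rose by 1.18. Among p53 targets 8 of 26 rose (30.8%) and 7 fell (26.9%), against 33.9% and 13.8% of all genes, but 5 rose and 9 fell with either scaling, 5 and 5 without WT10 and 4 and 4 without WT30. Of these genes, Bcl2, an inhibitor of apoptosis, rose by 1.50 and Cdkn1a, the p21 cell cycle inhibitor, fell by 0.65 on the log2 scale. Immediate early genes had 7 of 20 higher (35%) and 2 lower (10%), near these shares of all genes, and 4 and 2 with quantile normalization. Among them Jun was at 165.5, 116 and 191 CPM against 58.4, 69.8 and 31.8 CPM (1.59) and Fos at 0.07 (adjusted p = 0.838).

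The genes with the largest falls had various roles. Afp (alpha-fetoprotein), a plasma protein of fetal liver and gut, was at 5, 4.75 and 8.15 CPM against 47.75, 29.8 and 121 CPM (-3.06 ± 0.29, adjusted p = 1.06e-06). Dmbt1, a secreted scavenger receptor of the mucosa (chromosome 7), was at 306, 517.5 and 305.5 CPM against 2670, 2697 and 2810 CPM (-2.90 ± 0.26, adjusted p = 6.21e-07). Trpa1, an ion channel of enterochromaffin cells, fell by 2.59. Fam129a fell by 2.14, Fer1l6 by 2.08, and the metabolic genes Cyp2c70, Rdh7, Ces1f and Sult1d1 fell by 1.87 to 2.02. On the other side, the largest rises included Pcdh8, a protocadherin (64.1, 33.2 and 78.1 CPM against 2.35, 4.15 and 0.4 CPM, 4.28 ± 0.39), the urea transporter Slc14a1 (3.99), Vwa2 (3.82), Rgcc (3.73) and Ccdc3 (3.50).

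The size of the response varied between cultures. Among genes called higher, the median log2 difference was 0.73 in WT30, 0.64 in WT10 and 0.38 in WT5, and among genes called lower -0.67, -0.52 and -0.37. Of the 1215 genes called with at least a 2-fold change, 953 (78.4%) changed most in WT30, 213 in WT10 and 49 (4.03%) in WT5. The stem cell list had medians of 3.01, 1.99 and 1.40 in WT30, WT10 and WT5, and the enterocyte list -1.52, -0.65 and -0.23. The fetal list was more even, at 1.46, 1.17 and 1.36. The balance of calls varied with the level. Of genes with a mean of at least 100 CPM, 17.6% were called higher and 30.4% lower, and of those under 2 CPM 38.2% and 4.28%. Differences between cultures rest on 1 library at each dose and have no replicate check. Without WT30, 2735 genes were called higher and 1121 lower.

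**Figure D4:**
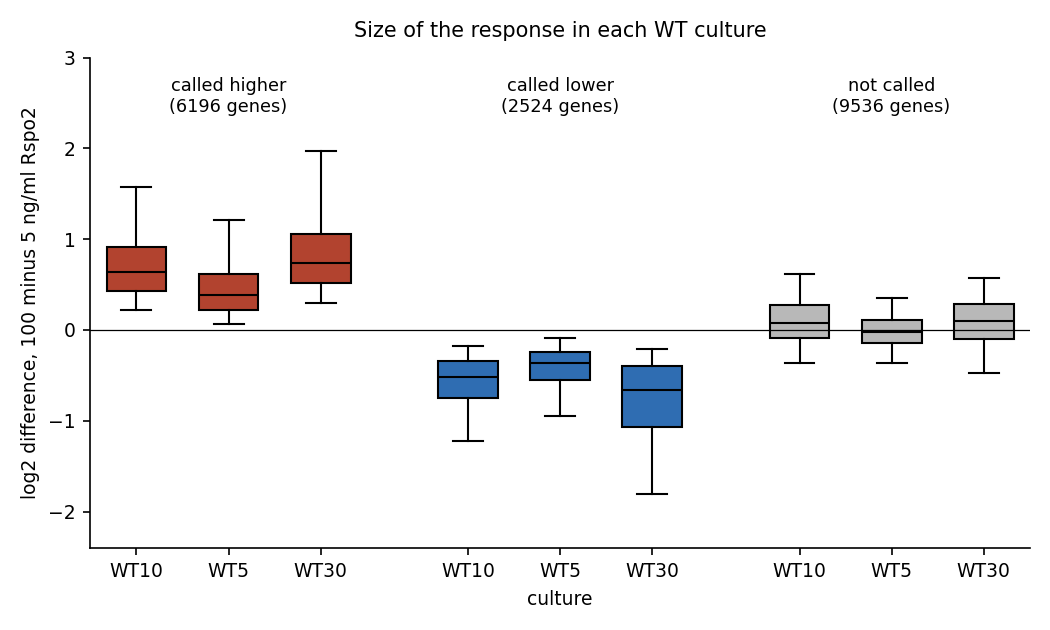
Log2 difference of 100 minus 5 ng/ml of Rspo2 (log2(CPM + 1) scale) in each WT culture, over the genes called higher and the genes called lower (boxes show the median and quartiles, whiskers the 5th to 95th percentiles), with the genes not called in grey. Among called genes the boxes of WT5 lie nearest to 0 in both directions and those of WT30 farthest from it.

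The dose response to Rspo2 was then set against that to Rspo1 and to Rspo3 in the same cultures, with the difference between the 2 dose effects as the test. It differed from that of Rspo1 in 812 genes with a more positive effect (4.45%) and 2246 with a more negative one (12.3%), and from that of Rspo3 in 2421 (13.3%) and 4269 (23.4%). The 3058 genes that differed from Rspo1 were 622 without WT10, 1470 without WT5 and 1438 without WT30, and 1381 without the culture block. The ligands share no library in these tests, and the 2 tests share the Rspo2 libraries. Of the 30 stem cell markers, 1 dose effect was more positive and 3 more negative with Rspo2 than with Rspo1, and 8 and 6 than with Rspo3. Lgr5 rose by 4.52 with Rspo2, by 4.49 with Rspo1 and by 5.01 with Rspo3. The difference to Rspo1 was 0.03 (95% interval -0.97 to 1.03) and to Rspo3 -0.48 (-1.48 to 0.52). With the low dose of Rspo3 Lgr5 lay under the 1 CPM added before the log, which makes its dose effect there too small. Axin2 rose by 3.73 with Rspo2, by 3.91 with Rspo1 and by 4.78 with Rspo3, and its difference to Rspo3 was -1.05 (-2.10 to 0.00, adjusted p = 0.111). The levels were unlike, however. At 5 ng/ml Lgr5 was at 6.1 to 28.7 CPM with Rspo2, 3.45 to 5.65 CPM with Rspo1 and 0.35 to 0.6 CPM with Rspo3, and at 100 ng/ml at 247 to 457.5, 94.2 to 192 and 39.35 to 50.65 CPM. Rnf43 differed by 0.13 (-0.41 to 0.66) from Rspo1 and by 0.35 (-0.19 to 0.89) from Rspo3, and Lyz1 by 0.04 (-0.65 to 0.73) and 0.10 (-0.59 to 0.79). For Olfm4 the Rspo2 dose effect was smaller than that of Rspo3, by 2.78 (adjusted p = 0.000942), as Olfm4 was already at 36.2 to 227 CPM with the low dose of Rspo2 and at 1.5 to 6.8 CPM with that of Rspo3.

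Several genes had a larger dose effect on the log2(CPM + 1) scale with Rspo2 than with either other ligand, the Wnt targets Sp5 and Nkd1 among them. Sp5 was at 6.7, 18.1 and 3.75 CPM with 100 ng/ml of Rspo1 and at 4, 3.65 and 2.5 CPM with Rspo3, where Rspo2 gave 36.6 to 61.6 CPM. The Rspo2 dose effect on Sp5 was larger by 3.19 than that of Rspo1 (adjusted p = 0.00057, but 2.73 and adjusted p = 0.051 without WT10) and by 4.36 than that of Rspo3 (adjusted p = 5.98e-06). Nkd1, at 11 to 17.3 CPM with the high dose of Rspo2, was at 1 to 3.55 CPM with Rspo1 and 0.1 to 0.7 CPM with Rspo3, differences in dose effect of 2.32 and 3.32. Slc14a1, Vwa2 and Mmp7 differed in the same direction (2.08, 1.77 and 0.85 against Rspo1, 3.17, 2.58 and 1.76 against Rspo3). With Rspo1, Mmp7 went from 0.1, 0.05 and 0 CPM to 5, 3.1 and 1.9 CPM. Nkd1, Slc14a1 and Mmp7 lay at 0.1 CPM or less with the low doses of Rspo1 and Rspo3. The 1 CPM added before the log makes their dose effects there too small, so a larger fold change with Rspo2 is not shown for them. On the whole Wnt target list 6 of 27 effects were more positive with Rspo2 than with Rspo1 and 1 more negative, and 10 and 5 against Rspo3.

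Proliferation genes separated the ligands. Of the 47 cell cycle genes, 38 had a smaller dose effect with Rspo2 than with Rspo1 and none a larger one, and 44 against Rspo3. For the genes of ribosome biogenesis the counts were 26 and 33 of 35. Mki67 lay at 436 to 586 CPM in all 6 Rspo2 libraries. With Rspo1 it went from 208, 339 and 292 CPM at the low dose to 444, 718 and 665 CPM, and with Rspo3 from 64.75, 123 and 77.3 CPM to 570, 549 and 549 CPM. The Rspo2 dose effect on Mki67 was lower by 1.11 than that of Rspo1 (adjusted p = 0.00234) and by 2.69 than that of Rspo3 (adjusted p = 1.82e-07). The low dose of Rspo2 thus had Mki67 within the range that the other ligands had at 100 ng/ml, whereas their own low doses lay below it. Enterocyte genes showed the reverse, with 17 of 49 dose effects more positive (that is, less of a fall) with Rspo2 than with Rspo1 and none more negative, and 20 and 2 against Rspo3.

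Several of the largest differences lay in the low dose, at which the paper gave full survival with Rspo2 but not with Rspo1 or Rspo3. Slc5a4b, a sugar transporter family gene, was at 2.75 to 7.05 CPM with 5 ng/ml of Rspo2 and at 3.05 to 7.65 CPM with 100 ng/ml, but at 137 to 214 CPM with 5 ng/ml of Rspo1 and at 345 to 423 CPM with that of Rspo3. Its dose effect differed by 3.94 and 5.76. The antimicrobial lectin Reg3b was at 7.85 to 17.85 CPM with the low dose of Rspo2 and at 116.5 to 306 and 302 to 365 CPM with those of Rspo1 and Rspo3. In the other direction, Stc2, a secreted glycoprotein induced by Atf4, was at 45.75 to 54.7 CPM with the low dose of Rspo2 and at 49.45 to 56.55 CPM with the high one (0.07, adjusted p = 0.605), while the other ligands gave 1.8 to 6.4 CPM at 5 ng/ml and 42.4 to 70.65 CPM at 100 ng/ml. Atf5, Trib3 and Chac1, genes of the same stress pathway, fell with the Rspo2 dose (by 1.20, 1.09 and 0.87) and rose with those of Rspo1 (1.38, 1.27 and 1.71) and Rspo3 (2.27, 1.36 and 2.22). The differences for these 3 genes were -2.36 to -2.59 against Rspo1 and -2.45 to -3.46 against Rspo3, each called.

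**Figure D5:**
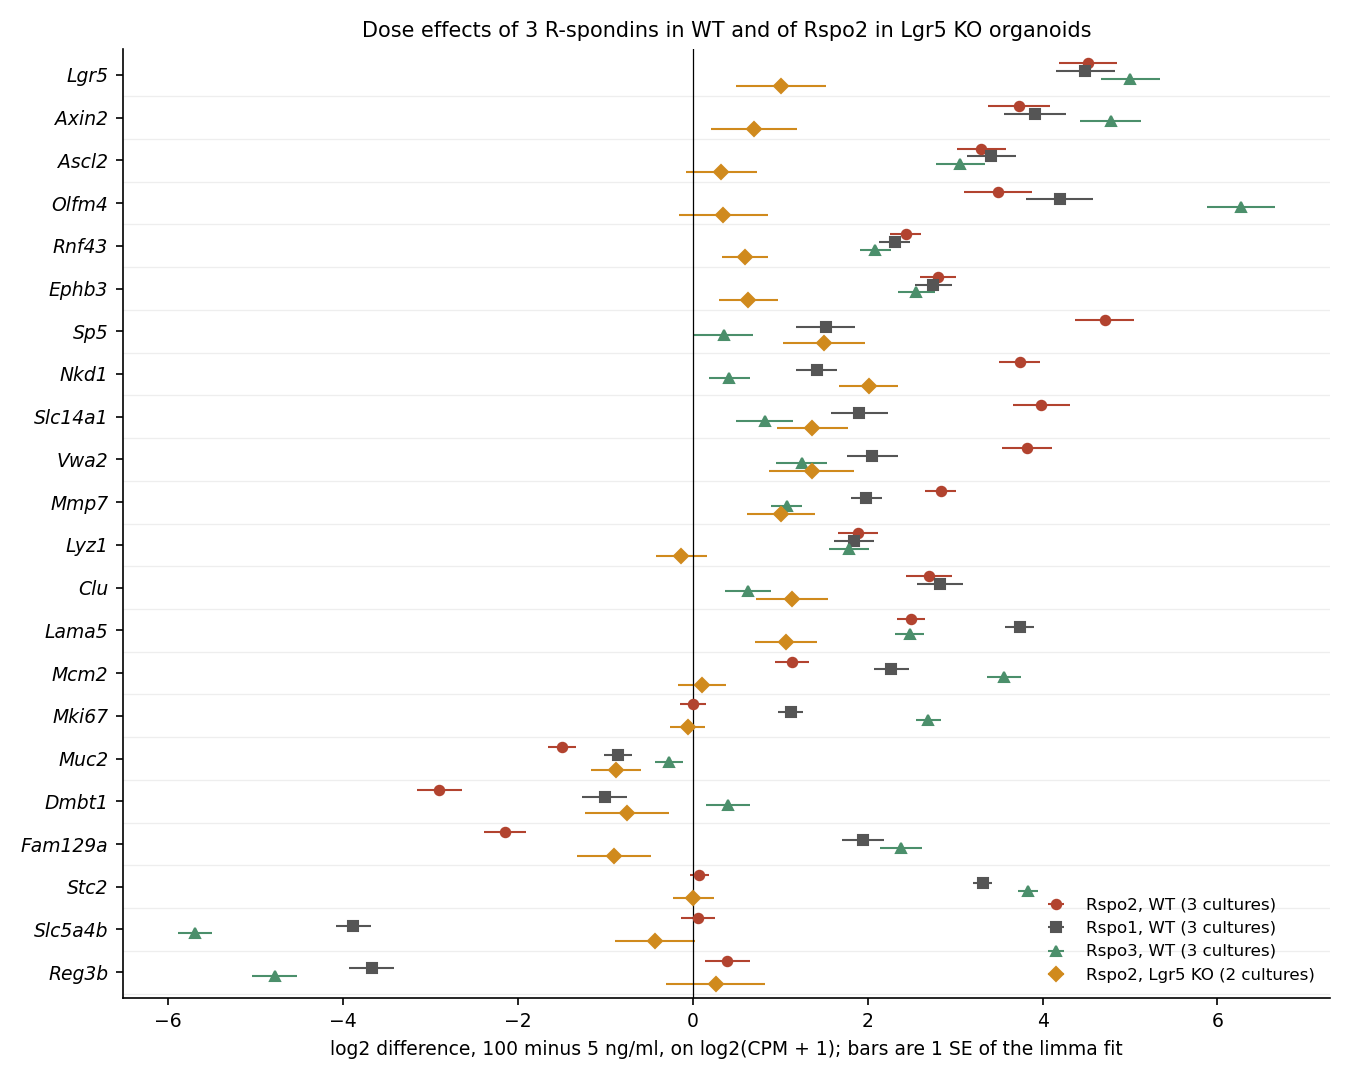
Log2 difference of 100 minus 5 ng/ml (log2(CPM + 1) scale) for 22 genes with Rspo2, Rspo1 and Rspo3 in WT cultures (n = 3) and with Rspo2 in KO cultures (n = 2), bars showing 1 SE of the fit. Rnf43 and Lyz1 lie close for the 3 ligands in WT and lower in KO, Sp5 and Nkd1 lie highest with Rspo2, and Mki67 lies near 0 with Rspo2 but not with Rspo1 or Rspo3.

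With Rspo2 in the 2 KO cultures, 184 genes were called higher and 40 lower of 19130 tested in a fit of all 30 organoid libraries, where the WT cultures gave 6516 and 2576. The WT counts rest on 3 cultures, so these counts do not measure the difference between the genotypes. The dose effect in WT was more positive than in KO for 612 genes (3.20%) and more negative for 148 (0.774%). Of the stem cell list, 24 genes had a more positive effect in WT and none a more negative one, and the counts were 18 for the Wnt targets and 20 for the Paneth genes. In KO the medians of these lists were 0.41, 0.36 and -0.33. The KO cultures did not act alike. Axin2 went from 138 to 423 CPM in KO7 and from 433 to 378.5 CPM in KO2, and Olfm4 from 376 to 878 CPM and from 1201 to 834 CPM. At the low dose these levels were above those of every WT culture (14.55 to 91 CPM for Axin2, 36.2 to 227 for Olfm4), and at the high dose below the WT range for both genes. Lyz1 was at 301 and 353 CPM at the low dose of the KO cultures and at 246 and 360 CPM at the high dose, and its dose effect differed by 2.02 ± 0.37 (SE, adjusted p = 0.00656). Defa35 differed by 3.35 ± 0.37 (adjusted p = 0.00011), with 26.1 CPM at the low and 16.1 CPM at the high dose in KO7 and 29.35 and 20 CPM in KO2.

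The count of genes that differed from KO leaned on single cultures. Without WT10 it was 28, without WT30 37 and without KO2 48, and it was 1622 without WT5, 1804 without KO7 and 84 without the culture block. The differences of Lgr5, Sp5, Pcdh8 and Rgcc were then no longer called without WT10, WT30 or KO2. Lgr5 reads of the KO cultures come from the disrupted locus and check nothing. The Y-linked gene Ddx3y was at 55 to 73.5 CPM in every KO library and at most 0.45 CPM in every WT one, while Xist was at 1030 to 3926 CPM in the WT libraries and at most 213 CPM in KO, so genotype and sex cannot be told apart here. Some genes that fell in WT had a less negative dose effect in KO. Afp was at 6.25 and 7.55 CPM at the low dose in KO (difference -1.81), and Slc6a19 went from 64.3 to 50.3 CPM in KO7 and from 104 to 171 CPM in KO2 (-1.82). The Afp call was lost without WT10 (adjusted p = 0.129), WT30 (0.139) or KO2 (0.411), without the culture block (0.418), with a pseudocount of 0.1 (0.0567) and without a filter (0.0706). The Slc6a19 call was lost without WT10 (adjusted p = 0.123), WT30 (0.191) or the block (0.239). Spp1 (osteopontin) rose more in KO, from 0.55 to 79.8 CPM in KO7 and from 0.25 to 30.9 CPM in KO2, where the WT cultures reached 1.25, 6.15 and 0.3 CPM from 0.1 CPM or less (-3.80 ± 0.60, adjusted p = 0.00187). That call was lost without WT10 (adjusted p = 0.0746) and with a pseudocount of 0.1 (0.0631).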

How the data were processed

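The deposited table holds CPM, which the authors computed from reads counted on genes (STAR 2.5.3a and HTSeq 0.9.1 are named in the submitters' notes, with GRCm38), rounded to 0.05 CPM. The strand setting of the counting is not given in the sources used here. Only the 30 organoid libraries were used. Reads per library, from 18.1 to 27.6 M in the 6 Rspo2 WT libraries, were taken from the size of 1 read in CPM, and 3 reads equal 0.109 to 0.165 CPM. Precision below that level covers counting error only.

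Log2(CPM + 1) was tested with limma 3.58.1 in R 4.3.3 (trended empirical Bayes, Benjamini-Hochberg adjusted p under 0.05). The 18 WT libraries were fitted with 6 groups and culture as a block, for genes at 1 CPM or more in at least 3 libraries. The WT and KO dose effects were compared in a fit of all 30 libraries, for genes at 1 CPM or more in at least 2. The block rests on the study's pairing by embryo: deviations of the same culture at the 2 doses correlated at 0.369 to 0.435. The scripts were tested on simulated data, where 83% of genes changed by 1 on the log2 scale were called for the Rspo2 dose (17839 genes), 53% for the difference from Rspo1 (17801 genes) and 51% for that between WT and KO (18629 genes).

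Named genes were a fixed panel, the 12 largest rises and falls, up to 4 of each list by size, and the 5 largest differences each way between dose effects. Other members of the lists named in the text were chosen after their values were seen. The members and lists were chosen with earlier results of these data known. Sequences are RefSeq promoters (GRCm38.p6). Alternatives were other scalings, pseudocounts, filters, blocks, weights, thresholds and leaving out each culture.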

Additional observations from a re-analysis of the deposited data

Results flagged for a closer look

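With Rspo2, the difference between 100 and 5 ng/ml was itself compared between WT and KO cultures, and it differed for 760 genes. Among the named genes the WT effect was the more positive one, on the log2 scale, for Lgr5 (3.51), Rnf43 (1.84), Znrf3 (0.90), Axin2 (3.03), Ascl2 (2.97), Olfm4 (3.14), Smoc2 (1.38), Nkd1 (1.73), Notum (0.82), Sp5 (3.21), Cd44 (1.72) and Sox9 (1.71). The same held for the Paneth and secretory genes Lyz1 (2.02), Mmp7 (1.83), Defa24 (1.91), Defa35 (3.35) and Atoh1 (0.85), and for Ephb2 (0.95), Ephb3 (2.17), Pcdh8 (3.51) and Rgcc (3.40). It was the more negative one for Spp1 (-3.80), Trpa1 (-1.83), Slc6a19 (-1.82), Afp (-1.81) and Maob (-1.75). Lgr5 reads in KO come from the disrupted locus and check nothing. Without WT10 or without WT30 the calls of Lgr5, Sp5, Pcdh8 and Rgcc were lost. Those of Pcdh8 and Rgcc were also lost without the culture block (limma adjusted p = 0.127 and 0.0893). Apart from these and Defa35, the more positive genes were not followed individually under the alternatives. The Trpa1 call was lost without WT10 (limma adjusted p = 0.123), WT30 (0.139) or the culture block (0.247), and with a pseudocount of 0.1 (0.0631). The Maob call was lost without WT10 (limma adjusted p = 0.124), WT30 (0.188) or the block (0.107). Without KO2, which leaves KO7 as the only KO culture, the differences were smaller, at -1.62 for Trpa1 and -1.25 for Maob. These calls cannot be counted as kept there. Groups held 3 WT and 2 KO cultures, and genotype and sex cannot be told apart in them. Notum was too low for the fit of the WT libraries, at 1.45 CPM at most with Rspo2. In the KO libraries with Rspo2 it was at 0.25 to 0.7 CPM. Among the Rspo2 libraries only those of WT at the high dose reached the 1 CPM of the filter, so its difference is no support.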

How the results depend on the processing

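Of 2089 values of 180 gene results under the alternatives, 1958 kept their direction and side of the threshold, 116 lost the call, 3 gained it and 12 changed sign. Genes called higher with Rspo2 numbered 2845 with a mean of at least 10 CPM, 3639 with quantile normalization, 929 at 2-fold and 2735 to 6148 without 1 culture. Genes called lower numbered 3869 with median-of-ratios scaling, 3901 with quantile normalization, 286 at 2-fold and 1121 to 2221 without 1 culture. Without the replicate block 4665 were higher and 1809 lower. The difference from Rspo1 held 3058 genes, and 1381 without the replicate block, 5017 with weights, 1255 at an adjusted p under 0.01, 615 at 2-fold and 622 to 1470 without 1 culture. That from Rspo3 held 6690, and 4261 at 0.01, 1963 at 2-fold and 4495 to 4774 without 1 culture. That from KO held 760, and 84 without the replicate block, 483 with a pseudocount of 0.1, 426 without a filter, 272 with a mean of at least 10 CPM, 1578 with weights, 127 at 0.01, 418 at 2-fold and 28 to 1804 without 1 culture. Members of the lists called numbered 361, and 231 to 346 without 1 culture. Signs changed for Atoh1 (0.0049 with weights, -0.1154 to 0.0106 without 1 culture), Lct (-1.2767 to 0.0647 without 1 culture), Mki67 (-0.16 with median-of-ratios scaling, -0.0424 with weights, -0.0828 to 0.0646 without 1 culture), Hes1 (-0.0099 with median-of-ratios scaling), Slc5a4b (-0.0701, -0.26 and -0.0186 with median-of-ratios scaling, quantile normalization and weights), Dpep1 (-0.3016 to 0.0077 without 1 culture) and Stc2 (-0.0874 with median-of-ratios scaling). None of these was called on the CPM as deposited with all 3 cultures. The causes were not tested.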
